A study of Mus musculus with 8 samples.

Results

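Heterotrimeric G proteins relay signals from seven-transmembrane receptors, and their beta and gamma subunits form one stable unit that is released together from the alpha subunit when a receptor is activated. The free beta-gamma dimer acts on its own targets, among them phosphoinositide 3-kinase gamma, adenylyl cyclases, phospholipase C beta isoforms, G protein-coupled receptor kinases and potassium channels. The gamma subunit carries a lipid at its C terminus that anchors the dimer to the membrane, and chemokine, lysophosphatidic acid and thrombin receptors on carcinoma cells signal partly through such dimers.

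The transcripts of 10 such genes were followed in 4T1 cells, a mouse mammary carcinoma line used as a model of triple-negative breast cancer. They were the 5 beta subunit genes Gnb1, Gnb2, Gnb3, Gnb4 and Gnb5 and the 5 gamma subunit genes Gng2, Gng5, Gng10, Gng11 and Gng12, out of 54532 genes listed in each library. Gnb4 and Gng2 were chosen by their measured log2 fold changes, a strong rise in shMCT-1 cells. Their values in the comparisons of shMCT-1 with scramble are therefore given as a description with no test.

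RNA sequencing covered 4 groups with 2 independent biological replicates each. Scramble cells carried a control shRNA and shMCT-1 cells carried an shRNA against MCT-1, the oncogene encoded by Mcts1. Both were stable transfectants kept under puromycin, and each was treated for 48 h either with IgG or with anti-IL-6R at 100 ng/ml, an antibody that blocks the interleukin-6 receptor. One shRNA sequence was used against MCT-1 in this line, and whether each transfectant was a pool or a single clone is not given in the sources used here, so the shRNA and the cell population cannot be told apart. The libraries held between 19839299 and 33063570 expected counts, and the 4 shMCT-1 libraries were the shallowest. Levels are given as CPM, the counts of a gene relative to the total of its library, scaled by the trimmed mean of M values (TMM), and a gene was called changed at an adjusted p under 0.05 in edgeR's quasi-likelihood test across 12704 genes.

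Mcts1 lay between 11.8 and 14.99 CPM in scramble and between 4.99 and 6.88 CPM in shMCT-1, which is -1.08 ± 0.17 (SE, n = 2 per group) on the log2 scale within IgG and -1.13 ± 0.17 within anti-IL-6R (edgeR, adjusted p = 0.000676 and 0.000557). The scramble + IgG replicate 2 library stood apart from the other 3 scramble libraries, with root mean square log2 differences of 0.287 to 0.304 over all tested genes against 0.185 to 0.190 among the others. Among the 4 shMCT-1 libraries such differences were 0.242 to 0.325. All 7 epithelial markers were detected, and their summed level was 2060 to 2180 CPM in scramble and 2710 to 2960 CPM in shMCT-1. The sum hides unlike changes. Epcam lay at 3.67 to 4.85 CPM in scramble and 50.2 to 55.3 CPM in shMCT-1, and Cldn4 at 4.85 to 6.2 and 72.9 to 79.9 CPM. Krt8, Krt18 and Krt14 were also higher in shMCT-1, Cldn3 was lower at 21.2 to 25.5 against 27.2 to 32.2 CPM, and Cdh1 overlapped. Only 1 of 6 leukocyte markers, Cd68, exceeded 1 CPM, Cd3e and Adgre1 were at 0 in every library, and the leukocyte sum was 3.09 to 3.90 CPM in scramble and 6.15 to 8.01 CPM in shMCT-1. Of 4 endothelial markers, Cdh5 alone exceeded 1 CPM, and their sum was 0.0945 to 0.332 CPM against 0.569 to 1.94 CPM. Of 3 megakaryocyte and platelet markers 1 exceeded 1 CPM, with sums of 1.24 to 1.42 and 0.414 to 1.22 CPM, and of 4 fibroblast markers 2 did, with sums of 15 to 16.9 and 13.0 to 16.5 CPM. The part of these differences in the results below was not tested. Of the receptors by which triple-negative cancer is defined, Pgr was at 0 throughout, Esr1 lay between 2.55 and 4.70 CPM and Erbb2 between 54.7 and 72.8 CPM. In such bulk RNA a change in a few cells and a smaller change in all cells cannot be told apart.

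The gamma subunits end in a CaaX box, the signal for the lipid. A box ending in leucine is the geranylgeranyl signal, and Gng11 belongs to the small farnesylated branch of the family, whose boxes end in serine. The last 30 coding bases of the 5 gamma genes are shown here, stop codon included and 5′ to 3′ on the coding strand, because they separate Gng11 from the other members. The CaaX codons are in capitals, and positions and sequences come from GENCODE M21 on GRCm38.
Gng2, chr14:19875807-19875836, minus strand: gagaagaagttcttcTGCGCCATCCTTtaa
Gng5, chr3:146503356-146503385, plus strand: agaccccagaaagtcTGCTCCTTTTTGtag
Gng10, chr4:59039323-59039352, plus strand: cgggagcccaggtccTGTGCTCTACTTtga
Gng11, chr6:4008131-4008160, plus strand: aaagaaaagggcagcTGTGTCATTTCAtaa
Gng12, chr6:67017560-67017589, plus strand: aaggataagaagaccTGCATCATCTTAtag

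The last CaaX codon was TCA in Gng11 and one of CTT, TTA or TTG in the other 4 genes. Over their whole coding sequences, pairs of the gamma genes were 45.5% to 70.3% identical, the closest being Gng2 and Gng12. Among the beta genes the closest pair was Gnb1 and Gnb2 at 77.0%, and Gnb4 was 76.9% identical to Gnb1. Gnb5, with 1188 coding bases against 1023 in each of the other beta genes, was 52.1% to 53.3% identical to them.

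Gnb4 rose from a trace level. The gene lies on chromosome 3 (32580332 to 32616585, minus strand) and encodes a beta subunit of the same length as Gnb1. It measured 2.23 and 2.24 CPM in the scramble + IgG libraries, 1.83 and 1.84 CPM in scramble + anti-IL-6R, 32.2 and 34.2 CPM in shMCT-1 + IgG, and 31.8 and 36.4 CPM in shMCT-1 + anti-IL-6R. Every shMCT-1 library was above every scramble library, on 54 to 63 counts per scramble library and 615 to 788 counts per shMCT-1 library. The log2 fold change was 3.89 ± 0.13 (SE) within IgG and 4.22 ± 0.13 within anti-IL-6R.

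Gnb1 and Gnb2 encode the widely expressed beta subunits and were the most abundant of the 10 transcripts. Gnb1, on chromosome 4 (155491361 to 155559269, plus strand), measured 523, 506, 547 and 532 CPM in the scramble libraries and 629, 607, 640 and 643 CPM in the shMCT-1 libraries, IgG before anti-IL-6R. The backgrounds did not overlap, and the change was small at log2 0.26 ± 0.08 within IgG and 0.25 ± 0.08 within anti-IL-6R (edgeR, adjusted p = 0.0161 and 0.0212). Gnb2, on chromosome 5 (137528127 to 137533510, minus strand), measured 293, 232, 305 and 292 CPM in scramble and 470, 464, 546 and 459 CPM in shMCT-1. It rose by log2 0.83 ± 0.12 within IgG and 0.75 ± 0.12 within anti-IL-6R (edgeR, adjusted p = 0.000426 and 0.00074). The call for Gnb1 was lost within IgG without scramble + anti-IL-6R replicate 2, shMCT-1 + IgG replicate 1 or shMCT-1 + IgG replicate 2 (edgeR, adjusted p = 0.0509, 0.0972 and 0.0523), and within anti-IL-6R without either scramble + anti-IL-6R replicate (edgeR, adjusted p = 0.108 and 0.175). The IgG call was also lost by the edgeR exact test (adjusted p = 0.0557) and with the 4 compared libraries alone (edgeR, adjusted p = 0.0611), and the anti-IL-6R call with no filter on low counts (edgeR, adjusted p = 0.0518).

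Gnb5 encodes the divergent beta subunit that pairs with RGS proteins of the R7 class rather than with a gamma subunit. On chromosome 9 (75306288 to 75345876, plus strand), it measured 3.19, 3.48, 3.81 and 3.55 CPM in scramble and 9.39, 7.25, 9.62 and 7.49 CPM in shMCT-1. It rose by log2 1.32 ± 0.20 within IgG and 1.21 ± 0.20 within anti-IL-6R (edgeR, adjusted p = 0.000516 and 0.000701). Of 7 genes for R7 proteins and their anchors only Rgs11 was expressed enough to be tested. It changed by log2 0.70 ± 0.25 within IgG (edgeR, adjusted p = 0.0373) and by 0.29 ± 0.25 within anti-IL-6R, where it was not called (edgeR, adjusted p = 0.35), and the IgG call was lost without any one of 5 libraries, to log2 0.36 without shMCT-1 + IgG replicate 2. Gnb3, the cone photoreceptor subunit on chromosome 6 (124834240 to 124840275, minus strand), had 1 count in scramble + anti-IL-6R replicate 2 and none in the other 7 libraries. A count of 0 allows a level of up to 0.151 CPM in the shallowest library, from 3 counts and for counting error only, and Gnb3 was not tested.

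Gng2 showed the same kind of rise as Gnb4. It encodes a widely expressed gamma subunit that pairs with Gnb1 in the dimer most used in biochemical work, and it lies on chromosome 14 (19872559 to 19977627, minus strand). Its level was 1.35 and 1.70 CPM in scramble + IgG, 1.54 and 1.72 CPM in scramble + anti-IL-6R, 32.3 and 31.5 CPM in shMCT-1 + IgG, and 25.9 and 30.1 CPM in shMCT-1 + anti-IL-6R. All shMCT-1 libraries were above all scramble libraries, on 500 to 726 counts against 38 to 58. The log2 fold change was 4.39 ± 0.15 within IgG and 4.09 ± 0.15 within anti-IL-6R. A long noncoding RNA gene on the opposite strand that overlaps the end of Gng2, Gm48283, was at 0 in the scramble libraries and at 0.0462 to 0.569 CPM in the shMCT-1 libraries, and whether counting used strand is not given in the sources used here.

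Gng11 and Gng12 moved in opposite directions. Gng11, the farnesylated subunit on chromosome 6 (4003904 to 4008445, plus strand), measured 10.99, 8.42, 8.76 and 9.80 CPM in scramble and 46.0, 52.7, 57.7 and 45.4 CPM in shMCT-1. It rose by log2 2.34 ± 0.16 within IgG and 2.47 ± 0.16 within anti-IL-6R, which is 5.07-fold and 5.54-fold (edgeR, adjusted p = 5.74e-06 and 3.93e-06). Gng12, a geranylgeranylated subunit whose gene is on the same chromosome (66896397 to 67021350, plus strand), measured 104, 106, 99.0 and 101 CPM in scramble and 59.2, 58.6, 57.4 and 63.1 CPM in shMCT-1. It was the one member that fell, by 0.83 ± 0.08 on the log2 scale within IgG and by 0.73 ± 0.08 within anti-IL-6R (edgeR, adjusted p = 5.36e-05 and 0.000102). The backgrounds did not overlap for either gene.

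Gng5 and Gng10 encode the shortest of these gamma subunits, and their changes were smaller. Gng5, on chromosome 3 (146499807 to 146505572, plus strand), measured 72.3, 48.2, 66.1 and 62.3 CPM in scramble and 86.9, 81.0, 94.6 and 83.7 CPM in shMCT-1. The log2 fold changes of 0.48 ± 0.16 and 0.47 ± 0.16 passed the test (edgeR, adjusted p = 0.029 and 0.0296). The low value was that of the scramble + IgG library that stood apart, and without it the change within IgG was 0.21 and was not called (edgeR, adjusted p = 0.14), while without its partner, scramble + IgG replicate 1, it was 0.80. The IgG call was also lost without either shMCT-1 + IgG library and with the 4 compared libraries alone (edgeR, adjusted p = 0.0539), and the anti-IL-6R call without either scramble + anti-IL-6R library or without shMCT-1 + anti-IL-6R replicate 1.

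Gng10, on chromosome 4 (59035088 to 59041903, plus strand), measured 26.8, 23.7, 26.6 and 26.3 CPM in scramble, 29.8 and 51.1 CPM in shMCT-1 + IgG, and 35.8 and 31.2 CPM in shMCT-1 + anti-IL-6R. One library, shMCT-1 + IgG replicate 2, was far above its partner. The log2 fold change was 0.68 ± 0.20 within IgG (edgeR, adjusted p = 0.0174) and fell to 0.24 without that library (edgeR, adjusted p = 0.189). The call was also lost without scramble + IgG replicate 2, at 0.60 (edgeR, adjusted p = 0.0978). Within anti-IL-6R the change was 0.34 ± 0.20 and was not called (edgeR, adjusted p = 0.179), but 5 of 16 alternatives called it. These were the edgeR exact test (adjusted p = 0.0101), no filter on low counts (edgeR, adjusted p = 0.0169), the 4 compared libraries alone (edgeR, adjusted p = 0.0264) and the fits without either shMCT-1 + IgG library, which lie outside that comparison (edgeR, adjusted p = 0.0296 and 0.0307). Gng10 overlaps a readthrough gene, Gm20503, that joins it to Dnajc25 and was at 0 CPM in the high library and at 0.324 to 3.30 CPM in the other 7, so the division of reads between the pair is uncertain.

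**Figure D1:**
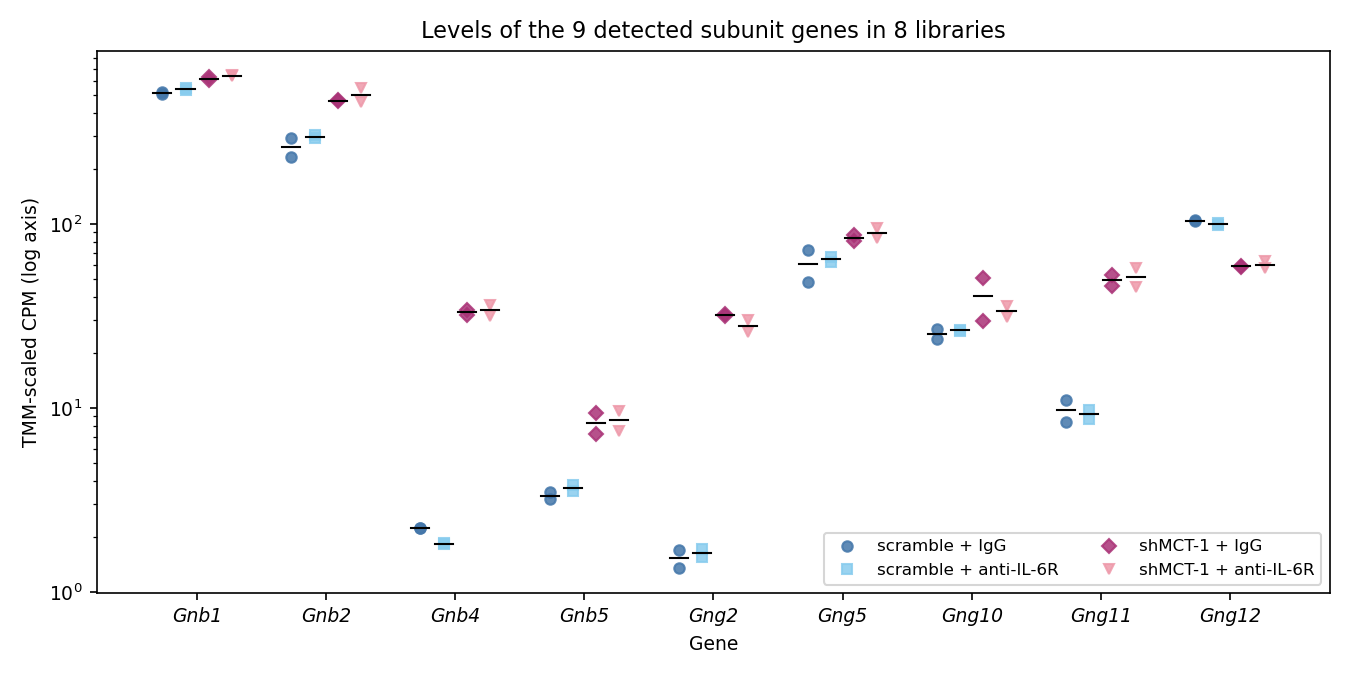
TMM-scaled CPM on a log axis for the 9 detected subunit genes, with 1 point per library, 4 groups per gene and a black line at each mean of 2 libraries. Gnb4, Gng2 and Gng11 sit far higher in both shMCT-1 groups than in both scramble groups, Gng12 sits lower, and Gng10 has 1 high library at 51.1 CPM.

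Of the 8 members that were not chosen for their rise, 7 were tested, each above 1 CPM in every library of both backgrounds. All 7 were called within IgG, 6 higher and 1 lower, where 54.4% of all tested genes were called, 28.3% as higher and 26.2% as lower. Within anti-IL-6R 6 of 7 were called, 5 higher and 1 lower, where 54.3% of all tested genes were called, 26.9% as higher and 27.3% as lower. With more than 1 in 2 genes called, a call by itself says little about a member. The count of members called fell in both comparisons when certain single libraries were left out. The sizes of the changes separate the members more than the calls do. The median log2 fold change of these 7 was 0.68 within IgG and 0.47 within anti-IL-6R, beside 0.01 in both comparisons over all tested genes. The members were chosen with earlier results of these data known, so these medians describe the list only. For the 2 tested gamma genes outside the list, Gng3 and Gng7, the medians were -0.65 and -1.25. Both genes passed the filter of 1 CPM only through scramble libraries, so these medians carry no weight. The calls of Gnb2, Gnb5, Gng11 and Gng12 held in both comparisons under all 16 alternatives tried. The 2 comparisons share no library but use the same pair of transfectants. The backgrounds did not overlap for any of the 7 members not chosen for their rise, as for 64.4% of all tested genes.

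**Figure D2:**
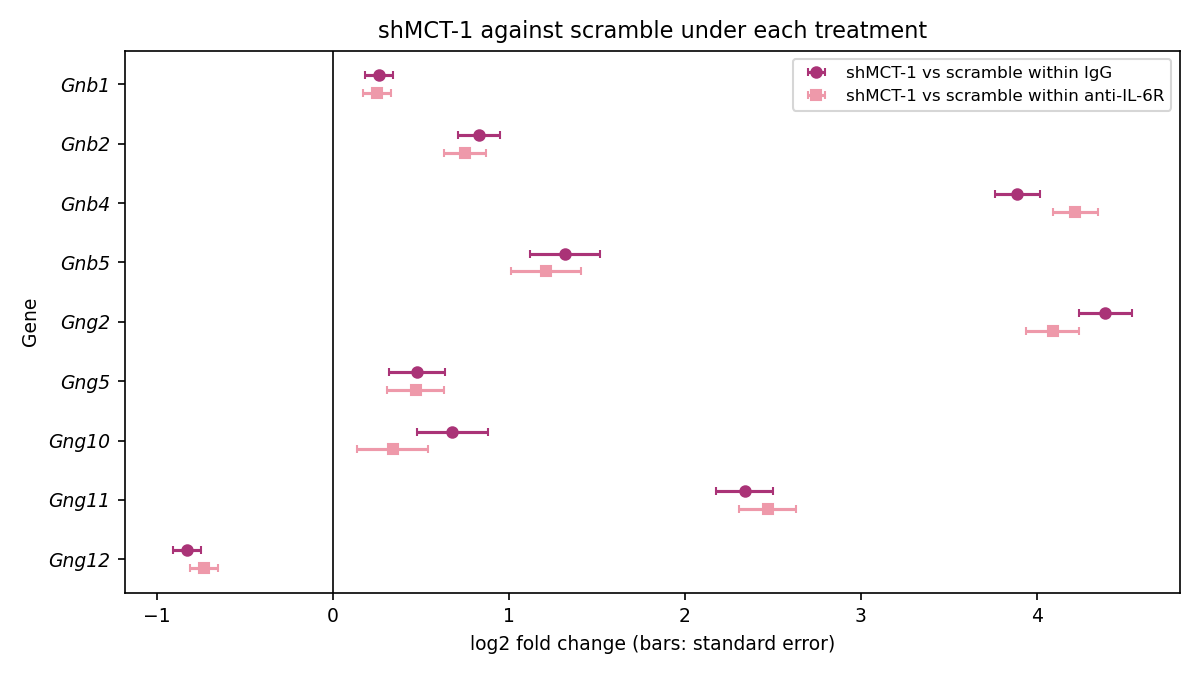
Log2 fold change from scramble to shMCT-1 for the 9 tested genes, within IgG (circles) and within anti-IL-6R (squares), with bars of 1 standard error. Gnb4 and Gng2 lie near 4, Gng11 at 2.34 and 2.47, Gng12 below 0, and the remaining 5 genes between 0.25 and 1.32.

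Levels were next compared between genes after division by the length of the merged exons, as CPM per kb. Summed over the family, beta transcripts rose from between 188 and 219 CPM per kb in scramble to between 283 and 316 in shMCT-1, and gamma transcripts from between 67.3 and 80.7 to between 124 and 145. In scramble Gnb1, at 119 to 128 CPM per kb, was above Gnb2, at 68.3 to 89.7, whereas in shMCT-1 the ranges of 142 to 151 and 135 to 160 overlapped. Gnb5 and Gnb4 were far below both, at 1.02 to 1.22 and 0.144 to 0.176 CPM per kb in scramble. In shMCT-1 they overlapped, at 2.33 to 3.09 and 2.51 to 2.87. This overlap depended on the length used. Per kb of the longest transcript, the shMCT-1 shares of the summed beta level were 1.05% to 1.32% for Gnb4 and 0.763% to 0.965% for Gnb5. Without division by length, they were 2.59% to 3.18% for Gnb4 and 0.652% to 0.824% for Gnb5.

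Despite its large fold change, Gnb4 remained a minor beta transcript. Its share of the summed beta level was 0.0779% ± 0.0133 (SD, n = 4 libraries) in scramble and 0.900% ± 0.0861 in shMCT-1. The share in shMCT-1 was 2.92% without division by length and 1.20% per kb of the longest transcript, which has 5997 bases against 12692 in the merged exons. Gnb1 went from 59.7% ± 2.25 to 50% ± 1.84 and Gnb2 from 39.7% ± 2.30 to 48.2% ± 1.87. Per kb of the longest transcript Gnb2 held the larger share in shMCT-1, 55.3% against 42.6% for Gnb1, and without division by length Gnb1 did, 54.5% against 41.9%.

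The gamma transcripts changed their order. In scramble Gng5 (17.4 to 26.1 CPM per kb), Gng12 (20.9 to 22.3) and Gng10 (18 to 20.4) were close, with Gng5 overlapping both, Gng11 followed at 9.16 to 12, and Gng2 came last at 0.307 to 0.391. In shMCT-1 Gng11 was highest at 49.4 to 62.7 CPM per kb, above Gng5 (29.3 to 34.2) and Gng10 (22.7 to 38.9), whose ranges overlapped, then Gng12 (12.1 to 13.4) and Gng2 (5.89 to 7.35). Gng11 thus went from 13.8% ± 0.902 (SD, n = 4 libraries) to 41.0% ± 2.10 of the summed gamma level and Gng12 from 29.2% ± 2.71 to 9.49% ± 1.14. Gng2 went from 0.487% ± 0.0831 to 5.14% ± 0.778. Gng5 went from 30.1% ± 2.96 to 23.5% ± 2.28 and Gng10 from 26.4% ± 0.796 to 20.9% ± 3.98, but both directions turned without division by length, to 30.8% and 32.9% for Gng5 and to 12.8% and 14% for Gng10. The first place of Gng11 rests on its short transcript of 919 bases, because without division by length its share in shMCT-1 was 19.1%, below Gng5 at 32.9% and Gng12 at 22.7%.

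**Figure D3:**
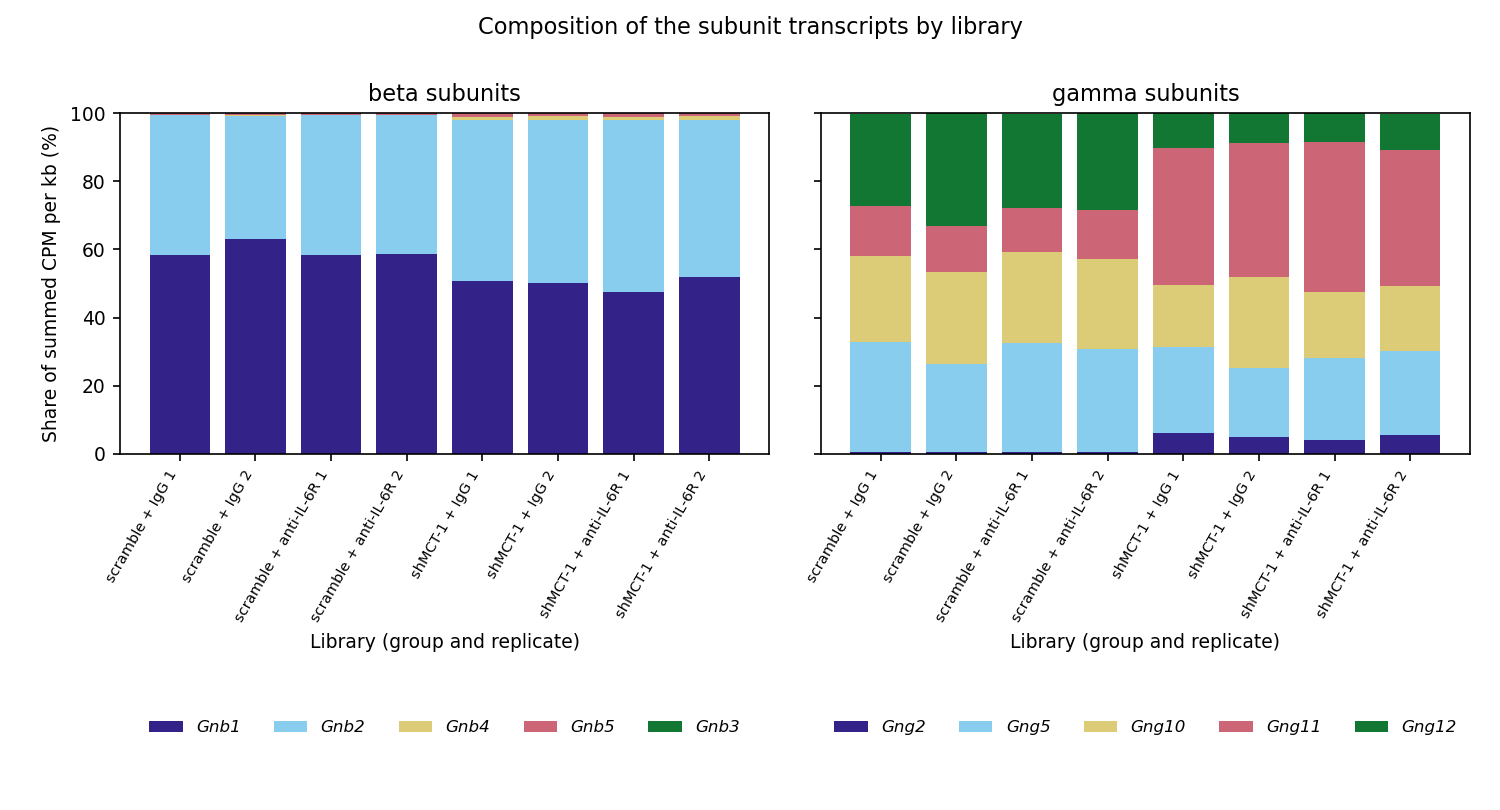
Share of each gene in the summed CPM per kb of the beta genes (left) and of the gamma genes (right) in each of the 8 libraries, as stacked bars that total 100%. Gng11 fills 39.5% to 44.1% of the gamma bar in shMCT-1 and 12.7% to 14.8% in scramble, while Gnb1 and Gnb2 fill nearly all of every beta bar.

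Blocking the interleukin-6 receptor was compared with IgG in each background, to ask whether the treatment altered these genes alone or on top of MCT-1 silencing. None of the 9 tested members was called in either background, none had an unadjusted p under 0.05, and the adjusted p was 1.0 for each (edgeR). Over all tested genes 0% were called in either comparison, with 166 genes (1.31%) at an unadjusted p under 0.05 in scramble and 505 (3.98%) in shMCT-1. By other tools the genes called numbered 10 in scramble and 14 in shMCT-1 with the edgeR exact test and 11 in shMCT-1 with DESeq2, none of them a member. In scramble the members' log2 fold changes ran from -0.29 (Gnb4) to 0.19 (Gnb2), and in shMCT-1 from -0.27 (Gng10) to 0.10 (Gnb2).

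The change of Gnb4 was -0.29 ± 0.16 in scramble and 0.04 ± 0.10 in shMCT-1, and that of Gng2 was 0.11 ± 0.20 and -0.19 ± 0.11. Taken as 2 SE on either side, the interval for Gnb4 was -0.61 to 0.04 in scramble and -0.16 to 0.24 in shMCT-1, and that for Gng2 was -0.28 to 0.50 and -0.42 to 0.04. For Gng11 the intervals were -0.40 to 0.26 and -0.23 to 0.35. The interaction, which asks whether the shMCT-1 change differed between treatments, was 0.33 ± 0.19 for Gnb4 and -0.30 ± 0.23 for Gng2. No member passed it (edgeR, adjusted p = 1.0 for each, none at an unadjusted p under 0.05), and 0% of all tested genes were called, with 315 (2.48%) at an unadjusted p under 0.05 and 6 called by DESeq2.

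**Figure D4:**
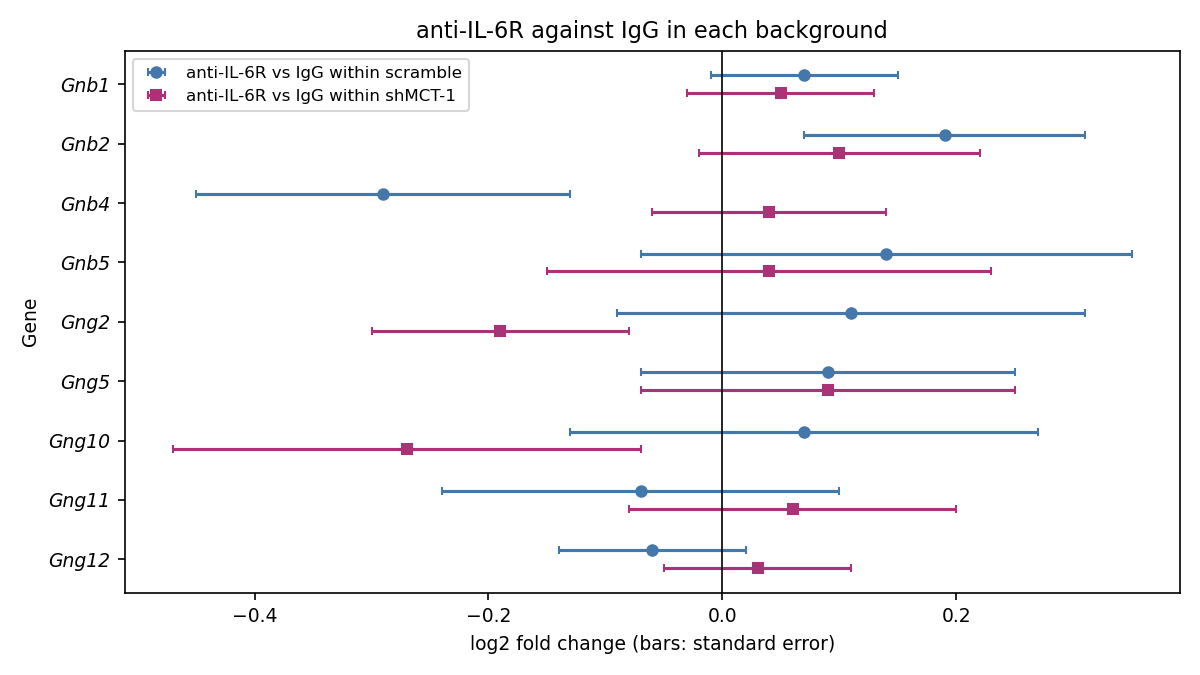
Log2 fold change of anti-IL-6R against IgG for the 9 tested genes in scramble (circles) and shMCT-1 (squares), with bars of 1 standard error. All values lie between -0.29 and 0.19, and none passed the test. The shMCT-1 changes of the members not chosen for their rise lie between -0.83 (Gng12) and 2.47 (Gng11).

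Other genes of the pathway were taken as 8 lists with 96 genes in all, of which 50 were tested. Within IgG 27 were called (19 higher, 8 lower) and within anti-IL-6R 24 (18 higher, 6 lower), shares of 54% and 48% beside the 54.4% and 54.3% of all tested genes. The median log2 fold changes were 0.15 and 0.14. The calls include those of Gng3, Rgs2 and Rgs14, which passed the filter through 1 background only and so carry no weight. Without shMCT-1 + IgG replicate 1 or 2 the IgG count was 17 or 16, and without scramble + anti-IL-6R replicate 2 the other count was 15.

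The alpha subunits, which bind the nucleotide and hold the dimer at rest, moved little. Of 16 listed 10 were tested, 2 were called higher within IgG and 1 within anti-IL-6R, and the medians were 0.08 and 0.10. The shares called were 20% and 10%, beside 54.4% and 54.3% of all tested genes. Gna12 went from 63.0 ± 5.65 CPM (SD, n = 4 libraries) to 77.6 ± 1.34 CPM, at log2 0.34 ± 0.10 and 0.27 ± 0.10 (edgeR, adjusted p = 0.0176 and 0.0463). Its call was lost within IgG without scramble + IgG replicate 2, where the change was 0.20, or either shMCT-1 + IgG library, and within anti-IL-6R under 9 of 16 alternatives. Gnao1 rose within IgG by 1.58 ± 0.29 (edgeR, adjusted p = 0.00138), and its change within anti-IL-6R was 0.66 ± 0.28 (edgeR, adjusted p = 0.0695). Of 7 other gamma genes 2 were tested, and Gng3 was called lower in both comparisons, at -1.14 ± 0.34 and -2.10 ± 0.38. It measured 1.70 to 1.84 CPM in scramble and 0.259 to 0.825 CPM in shMCT-1. Gng3 passed the filter of 1 CPM only through its scramble libraries, so its call as lower carries no weight and its values are a description. Gng3 overlaps Bscl2 on the opposite strand, so the division of reads between them is uncertain. The IgG call for Gng3 was lost without scramble + IgG replicate 2 or either shMCT-1 + IgG library.

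Genes for the folding and lipid modification of the subunits were all expressed. Of 11 folding and assembly genes 7 were called higher and 1 lower in each comparison, with medians of 0.23 and 0.32. The share called was 72.7% in each, beside 54.4% and 54.3% of all tested genes, of which 28.3% and 26.9% were called higher. Cct3, a subunit of the CCT chaperonin that folds beta subunits, rose from 559 ± 9.85 to 817 ± 32.7 CPM, at log2 0.51 ± 0.08 and 0.58 ± 0.08 (edgeR, adjusted p = 0.000663 and 0.00034). Pdcl, which encodes the phosducin-like protein that hands the beta subunit from the chaperonin to gamma, fell from 33.0 ± 2.33 to 18.4 ± 0.969 CPM, by 0.87 ± 0.10 and by 0.80 ± 0.10 on the log2 scale (edgeR, adjusted p = 0.000139 and 0.000214).

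Of 6 prenylation and CaaX processing genes 2 were called higher and 1 lower in each comparison, with medians of 0.12 and 0.16. The share called was 50% in each, near the 54.4% and 54.3% of all tested genes. Rce1, the protease that trims the CaaX box after the lipid is added, rose by 0.47 ± 0.12 and 0.43 ± 0.11 (edgeR, adjusted p = 0.00727 and 0.0107), and its call was lost within IgG without shMCT-1 + IgG replicate 1 and within anti-IL-6R without scramble + anti-IL-6R replicate 2 or shMCT-1 + anti-IL-6R replicate 1. Pggt1b, the beta chain of the geranylgeranyl transferase that modifies most gamma subunits, measured 18, 20.5, 16.9 and 17.6 CPM in scramble and 8.98, 9.85, 7.498 and 12.7 CPM in shMCT-1. It fell by 1.03 ± 0.20 and by 0.77 ± 0.19 on the log2 scale (edgeR, adjusted p = 0.00175 and 0.00803). Within anti-IL-6R the change was -0.43 without shMCT-1 + anti-IL-6R replicate 1 and -1.19 without replicate 2, and was called in both.

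Most of the dimer's known targets were too low in these cells to be tested. Of 18 effector genes 6 were tested, with 1 called higher and 1 lower within IgG, 2 higher and 1 lower within anti-IL-6R, and medians of 0.04 and 0.07. The shares called were 33.3% and 50%, beside 54.4% and 54.3% of all tested genes. Pik3r5, the regulatory subunit through which beta-gamma activates phosphoinositide 3-kinase gamma, measured 15.6, 19.2, 17.5 and 16.3 CPM in scramble and 2.19, 1.78, 1.91 and 2.59 CPM in shMCT-1. It fell by 3.13 ± 0.19 and by 2.90 ± 0.19 on the log2 scale (edgeR, adjusted p = 3.02e-06 and 3.93e-06), the largest fall among the list genes. Adcy7, an adenylyl cyclase that beta-gamma stimulates, rose by 0.33 ± 0.11 and 0.39 ± 0.11 (edgeR, adjusted p = 0.0303 and 0.0133), and its call was lost within IgG without any one of 5 libraries (0.20 without scramble + IgG replicate 2) and within anti-IL-6R without any one of 3.

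Of 16 receptors for chemokines, lysophosphatidic acid, sphingosine 1-phosphate and thrombin, 6 were tested, with 1 called higher in each comparison and 3 and 2 called lower, and medians of -0.12 and -0.09. The shares called were 66.7% and 50%, beside 54.4% and 54.3% of all tested genes. Lpar2, a lysophosphatidic acid receptor, rose from 5.92 ± 0.593 to 13.0 ± 1.30 CPM, at log2 1.15 ± 0.15 and 1.11 ± 0.15 (edgeR, adjusted p = 0.000226 and 0.000233). F2rl1, the receptor PAR2 that trypsin-like proteases activate, fell from 30.3 ± 0.524 to 21.5 ± 2.10 CPM, by 0.44 ± 0.11 and by 0.55 ± 0.11 on the log2 scale (edgeR, adjusted p = 0.00851 and 0.00275), and its IgG call was lost without shMCT-1 + IgG replicate 2.

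The genes around the 3 members that rose most were examined for changes of the whole neighbourhood. Within 500 kb of the starts of Gnb4, Gng2 and Gng11 lay 17 other tested genes, of which 11 were called in each comparison (64.7%, beside 54.4% and 54.3% of all tested genes), with median log2 fold changes of 0.38 and 0.36. Within IgG all 11 were higher, and within anti-IL-6R 10 were higher and 1 lower, where 28.3% and 26.9% of all tested genes were called higher. Without scramble + anti-IL-6R replicate 2 the anti-IL-6R count was 7. On either side of Gnb4, Mfn1 changed by -0.10 and 0.03 and was not called (edgeR, adjusted p = 0.361 and 0.768), and Actl6a rose by 0.31 and 0.28 (edgeR, adjusted p = 0.00771 and 0.0132), with a call that was lost without shMCT-1 + IgG replicate 1 or without either scramble + anti-IL-6R library. On either side of Gng2, Rtraf rose by 0.58 and 0.66 (edgeR, adjusted p = 0.000492 and 0.000242) and Saysd1 by 0.74 and 0.64 (edgeR, adjusted p = 0.0037 and 0.00739), the anti-IL-6R call of Saysd1 being lost without scramble + anti-IL-6R replicate 2. Bet1, 83.1 kb from Gng11 and the one tested gene in its window, rose by 1.37 and 1.29 (edgeR, adjusted p = 6.14e-05 and 7.74e-05). No neighbour changed as much as the member it lies beside, but the 3 members were taken for their large rise, so this is a description only.

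**Figure D5:**
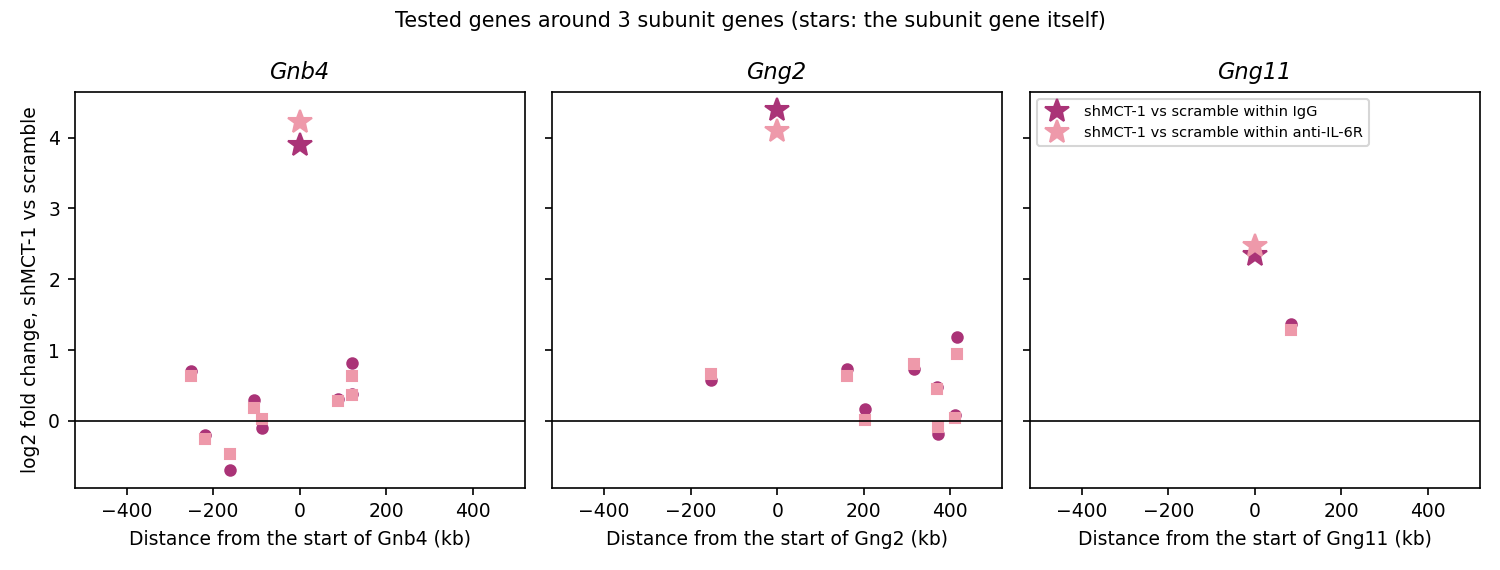
Log2 fold change from scramble to shMCT-1 for tested genes by the distance in kb of their start from the start of Gnb4, Gng2 or Gng11, within IgG (circles) and anti-IL-6R (squares), with stars for the member itself. The stars at 3.89 and 4.22 (Gnb4), 4.39 and 4.09 (Gng2) and 2.34 and 2.47 (Gng11) lie above every neighbour. The members were taken for their large rise.

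RefSeq start-site windows, which run from 250 bases before to 50 bases after the start on GRCm38.p6, were found for 7 of the 10 members and not for Gnb3, Gnb4 and Gng11. The windows differed in CpG content, and the 250 bases before the RefSeq start are shown for Gng2 and Gnb1, with each CG in capitals. They stand for a CpG-poor and a CpG-rich window. The RefSeq start of Gng2 lies inside the annotated gene, so its stretch is not the sequence upstream of the whole gene.
Gng2, chr14:19976694-19976943, minus strand: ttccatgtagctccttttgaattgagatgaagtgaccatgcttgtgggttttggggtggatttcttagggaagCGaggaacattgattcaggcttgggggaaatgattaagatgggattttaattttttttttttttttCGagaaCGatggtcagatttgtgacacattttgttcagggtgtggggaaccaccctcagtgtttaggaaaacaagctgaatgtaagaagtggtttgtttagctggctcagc
Gnb1, chr4:155491111-155491360, plus strand: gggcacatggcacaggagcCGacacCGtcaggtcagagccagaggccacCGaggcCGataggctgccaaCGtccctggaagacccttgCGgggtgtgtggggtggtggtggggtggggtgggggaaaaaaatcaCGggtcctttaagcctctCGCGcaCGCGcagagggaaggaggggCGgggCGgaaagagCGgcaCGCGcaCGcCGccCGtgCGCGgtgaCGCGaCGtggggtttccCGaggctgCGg

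The whole window of Gng2 held 5 CG dinucleotides, as did that of Gnb5, beside a median of 7 over 32851 RefSeq windows, whereas Gnb2 held 17, Gng10 27, Gnb1 31, the pair of Gng12 windows 34 and 35, and Gng5 52. The GC box GGGCGG was present on either strand in 5 of the 8 member windows, those of Gnb1, Gnb2, Gng5 and Gng10 and 1 of Gng12, and in 35.7% of all windows. CCAAT and TATAAA were found in the Gnb5 window alone, and in 37.4% and 13.6% of all windows. Neither the E-box CACGTG (7.15% of all windows) nor the cyclic AMP element TGACGTCA (1.79%) was found in a member window. The Gng2 window lies inside the annotated gene, so other starts of the gene are not covered by it.

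The genes with the pattern most like Gnb4 and Gng2 were taken by the Pearson correlation of log2 CPM over the 8 libraries, which measures mainly the shift between the 2 backgrounds and is shared by many genes. For Gnb4 the 5 closest were Vcam1 (r = 0.9995), Tes, Lipg, Il1a and Tmem117, and 283 of the 12704 tested genes exceeded an r of 0.99. Vcam1, an adhesion molecule that binds leukocyte integrins, went from 4.49 to 34.4 CPM on average, and Il1a, the cytokine interleukin-1 alpha, from 6.40 to 34.5 CPM. For Gng2 they were Kank1, Pgf, Igfbp7, Pdgfc and Tspan12, and 260 of the 12704 exceeded 0.99. Tmem117, Kank1, Igfbp7, Pdgfc and Tspan12 averaged 0.151 CPM or less in scramble, so they passed the filter only through shMCT-1 libraries. Gnb4 and Gng2 were chosen for the same rise, so these matches are a description only. Pgf, the placental growth factor, went from 1.00 to 20.6 CPM on average, while Tspan12 was at 0 in scramble and at 6.32 CPM in shMCT-1.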

How the data were processed

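Poly(A)-selected 4T1 RNA was sequenced as paired-end reads in 8 libraries, and the sample labels gave each group and replicate number. After trimming with cutadapt 1.18 and alignment by STAR 2.7.0d to the GENCODE mm10 genome and annotation, the authors deposited RSEM expected counts for 54532 genes per library, unscaled for depth or length. Whether the kit's molecular identifiers were used to remove duplicates, and whether counting used strand, are not given in the sources used here. Of values above 0, 29.6% were not whole, and all were rounded to whole numbers. Positions and lengths come from GENCODE M21 on GRCm38, which held 54409 of the identifiers when versions were ignored and 53229 when they were kept.

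The 12704 genes above 1 CPM in 2 or more of the 8 libraries were fitted in R 4.3.3 with edgeR 4.0.16 (quasi-likelihood, TMM, 4 group means, all 8 libraries sharing 1 estimate of the spread), and p-values were Benjamini-Hochberg adjusted over all tested genes. The SE is the log2 fold change over the root of F. The code was tested on simulated counts. The alternatives were DESeq2 1.42.0, RLE factors, 3 other filters, the edgeR exact test, the 4 libraries compared alone, a replicate block and each library left out. Replicates of every group differed beyond counting noise. Coding sequences were aligned with Biopython.

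The members and lists were chosen with earlier results of these data known. Named genes were all members, Mcts1, the largest rise and fall in each list among genes called in both comparisons, the nearest tested gene on each side of Gnb4, Gng2 and Gng11, and the 5 genes most correlated with Gnb4 and with Gng2. Gnao1 and Rgs11 were named after their values were seen.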

Additional observations from a re-analysis of the deposited data

How the results depend on the processing

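No alternative turned the direction of a member's shMCT-1 change. Leaving out 1 library at a time gave 4 to 7 members called within IgG, 4390 to 7304 genes within anti-IL-6R, 16 to 27 and 15 to 26 pathway genes within IgG and anti-IL-6R, and 7 to 12 neighbours within anti-IL-6R. The lowest counts came without shMCT-1 + IgG replicate 2 (members, pathway genes within IgG) or scramble + anti-IL-6R replicate 2 (the others), and a group left with 1 library is assumed to vary like the others. Calls over all genes for anti-IL-6R against IgG in scramble were 64 with no filter, 10 by the exact test and 0 to 14 without 1 library (14 without scramble + IgG replicate 1). In shMCT-1 they were 11 by DESeq2, 133 with no filter, 14 by the exact test and 0 to 1 without 1 library, and for the interaction 6 by DESeq2, 97 with no filter and 0 to 8 without 1 library (8 without scramble + IgG replicate 1). The cause was not tested. No member was called in these comparisons under any alternative.

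Small anti-IL-6R changes turned sign when 1 library was left out. In scramble the log2 fold change ranged from -0.0576 to 0.28 (Gng2), -0.17 to 0.41 (Gng5), -0.0173 to 0.16 (Gng10) and -0.24 to 0.14 (Gng11). In shMCT-1 it ranged from -0.0141 to 0.23 (Gnb2), -0.0538 to 0.14 (Gnb4), -0.14 to 0.24 (Gnb5), -0.61 to 0.17 (Gng10), -0.11 to 0.23 (Gng11) and -0.0286 to 0.11 (Gng12). The shMCT-1 change of Rgs11 within anti-IL-6R ranged from -0.0502 to 0.60.

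The share of Gnb4 was 0.252% and 2.92% in scramble and shMCT-1 without division by length, and 0.107% and 1.20% per kb of the longest transcript. The share of Gng2 without division by length was 0.788% and 11.4%. The other shares under these scalings were added after the data were seen.

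Replicate numbers did not pair the libraries, with correlations of replicate deviations between groups of -0.0726 to 0.118. With the replicate block 7 and 6 members were called in the shMCT-1 comparisons, 7035 and 7017 genes in all, and no member's call changed. With 2 libraries a group, only differences large beside that spread could be called.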

Other observations

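Regulators of G protein signalling (RGS proteins), which end the signal by speeding GTP hydrolysis on the alpha subunit, were among the list genes with the largest changes. Of 15 such genes outside the R7 class 8 were tested, with 5 called higher and 1 lower within IgG and 5 called higher within anti-IL-6R, beside 54.4% and 54.3% of all tested genes called and 28.3% and 26.9% called higher, and the median log2 fold change was 0.80 in both. Rgs14 measured 0 to 0.0829 CPM in the scramble libraries and 1.43 to 1.67 CPM in the shMCT-1 libraries. Rgs14 and Rgs2 passed the filter of 1 CPM only through their shMCT-1 libraries. Their calls as higher are among the counts above and their values enter the median, but neither carries weight. Their values are a description with no test. The other tested genes of this list ran from -0.26 (Rgs3) to 2.52 (Rgs16) within IgG. Within anti-IL-6R they ran from -0.09 (Rgs3) to 2.93 (Rgs16). No fold is given for Rgs14 because the scramble libraries held almost no counts of it.

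Of the others, Rgs16, Rgs2 and Rgs10 were picked after their values were seen. Rgs16 measured 26.6, 21.0, 21.6 and 21.8 CPM in scramble and 138, 136, 162 and 168 CPM in shMCT-1, a rise of 2.52 ± 0.11 on the log2 scale within IgG and 2.93 ± 0.11 within anti-IL-6R (edgeR, adjusted p = 5.21e-07 and 1.75e-07). Rgs2 rose by 1.55 ± 0.34 and 1.56 ± 0.34, from a level under 0.68 CPM. Rgs10 rose by 1.02 ± 0.21 and 1.00 ± 0.21 (edgeR, adjusted p = 0.00269 and 0.00306).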
